A study of Sus scrofa with 18 samples.

Results

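The regions described are the H3K4me3 peaks of the longitudinal muscle (LM) of the pig uterus on day 15 of pregnancy that had no counterpart in the circular muscle (CM). They were chosen as peaks of the LM list on chromosomes 1 to 18 and X with a fold enrichment over IgG of at least 4 that shared no base with an H3K4me3 peak of either CM list. This left 1663 regions of the 21430 LM peaks at that fold enrichment, or 7.76% of them, and of 31910 H3K4me3 peaks in the LM list and 320764 peaks in the 6 lists of both marks. The myometrium samples came from the mesometrial side of the uterus of Yorkshire gilts, with 2 gilts for each of 3 types: circular muscle on day 15 of pregnancy (GD15M_CM), longitudinal muscle on day 15 of pregnancy (GD15M_LM) and circular muscle on day 15 of the oestrous cycle (CD15M_CM). Each type was profiled by CUT&Tag, in which an antibody guides a transposase to cut DNA beside the marked nucleosomes, with antibodies against H3K4me3 and H3K27ac and with IgG as control, which made 18 samples. Longitudinal muscle of cyclic gilts was not profiled in these lists, so GD15M_LM differed from GD15M_CM in the layer, and from CD15M_CM in both the layer and pregnancy. The layers are pieces of tissue that hold vessels, nerves and immune cells beside smooth muscle, and a region of few cells cannot be told apart from a weak region of many.

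Trimethylation of histone H3 on lysine 4 marks nucleosomes around the start sites of active and poised genes, where it is bound by factors that help transcription start. Acetylation of histone H3 on lysine 27 marks active promoters and active enhancers, so a weak H3K4me3 peak far from a gene end that also carries H3K27ac is commonly found at an active enhancer or an unannotated start site. The outer longitudinal layer shortens the uterine horn and the inner circular layer narrows it, and both are built from smooth muscle cells.

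The authors pooled the 2 gilts of each type before peaks were called, so each list gives 1 value per peak and the spread between gilts could not be measured from these lists. All comparisons below are therefore counts and shares with 95% Wilson intervals, which cover counting error over regions alone, and no difference was tested between groups. The paper also compared GD15M_CM with GD15M_LM by a separate program, DiffBind, and reports differential regions of both marks. Those results were not used here. Overlap also counts called peaks: a region without a CM peak may still hold CM signal below the caller's limit. Because the lists were scaled separately, a level was given as its percentile, the rank of its fold enrichment within all peaks of its own list. The marker genes of smooth muscle had H3K4me3 within 3 kb of an end for 13 of 14 genes in each of the 3 lists. Of the other cell types, mesothelium markers had it for 4 of 8 placed genes in GD15M_LM and for 6 in each CM list, uterine epithelium markers for 10, 11 and 11 of 11 in GD15M_LM, GD15M_CM and CD15M_CM, endothelium markers for 9 of 10 in each list, T cell markers for 7, 7 and 6 of 8, macrophage and B cell markers for 6, 5 and 7 of 9, nerve and glia markers for 5, 4 and 6 of 10, and interstitial and fibroblast markers for 9 of 10 in each list. Of all 28073 placed genes, 16417, 16168 and 16654 had it in GD15M_LM, GD15M_CM and CD15M_CM. Smooth muscle genes were thus marked in all 3 lists, but genes of the other types were marked in them too. These counts therefore do not tell the cell types of the samples apart.

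The regions were weak and narrow peaks. Their fold enrichment, which chose them, had a median of 4.55 with quartiles of 4.20 and 5.09 and a highest value of 15.8, and 1219 of the 1663 lay between 4 and 5, 421 between 5 and 8 and 23 at 8 or above. The 19767 LM peaks at the same threshold that did overlap a CM peak, called shared peaks below, had a median of 13.8. Median width was 387 bp against 1996 bp, and it stayed narrower at like enrichment: 352 bp against 568 bp for peaks between 4 and 5, and 550 bp against 992 bp for peaks between 5 and 8. The same rule gave regions of GD15M_CM only and CD15M_CM only with median widths of 307 and 360 bp. Their median fold enrichments were 4.44 and 4.41, so neither trait was particular to the LM regions. The median percentile of a region was 40.8 and that of a shared peak 68.5. Just inside the threshold stood a region in LOC106508676 and one nearest to KLHL31, both at 4.00133, and one nearest to YPEL1 at 4.00389, and just outside it stood peaks in LITAF, in PIP4K2A and nearest to MAP7D3, all at 3.99904. A further 3525 LM peaks with no CM overlap lay below 4. Fold enrichment took few distinct values, since 1361 regions had exactly the value of another region, so ranks among weak regions mean little. The regions were found on all chromosomes, from 5.57% of the LM peaks at the threshold on chromosome 12 to 10.8% on chromosome 10.

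**Figure D1:**
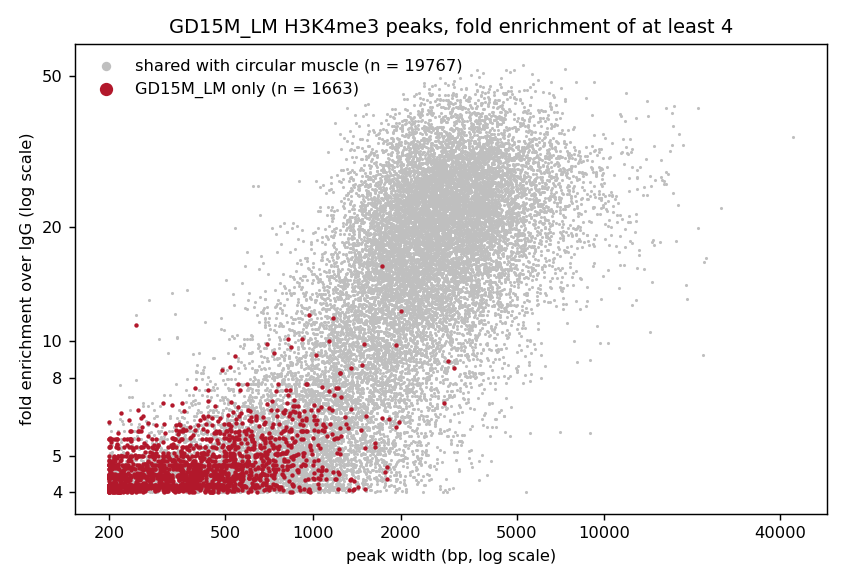
Width in bp (horizontal, log scale) against fold enrichment over IgG (vertical, log scale) for the GD15M_LM H3K4me3 peaks at a fold enrichment of at least 4, one point per peak, with the 1663 regions of GD15M_LM only in red and the 19767 shared peaks in grey. The red points crowd into the lower left corner, with medians of 387 bp and 4.55, while the grey cloud centres near 1996 bp and 13.8.

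Most regions lay away from gene ends. Of the 1663, 530 lay within 3 kb of an end of a RefSeq gene (31.9%, interval 29.7 to 34.1), 824 lay inside a gene but farther than 3 kb from any end (49.5%, 47.2 to 52.0), and 309 lay outside genes (18.6%, 16.8 to 20.5). The gene table gave neither strand nor exons, so start and end were not told apart and exons not from introns. The median distance to the nearest gene end was 5912 bp, with quartiles of 2268 and 20314 bp. Only 47 regions covered a gene end (2.83%), and 196 came within 1 kb of one (11.8%). Without the regions that had a CM peak within 1 kb, the share within 3 kb was 20.9% of 1091. Among shared peaks, 76.2% were that near to an end and 56.1% covered one. Part of that gap went with peak strength, and part did not: between 4 and 5 the share within 3 kb was 33.2% (30.6 to 35.9) for the regions and 59.2% (57.5 to 61.0) for shared peaks, and between 5 and 8 it was 28.3% (24.2 to 32.7) and 56.9% (55.2 to 58.6). Peaks chosen by the same rule from the other lists lay nearer to genes. For a CM list, however, the rule also removed peaks common to both CM lists, whereas GD15M_LM had no second list of its layer. The CM regions are therefore not a like counterpart of the LM regions. Of 1114 regions of GD15M_CM only, 49.9% (47.0 to 52.8) were that near to an end, and of 1219 regions of CD15M_CM only, 49.8% (47.0 to 52.6) were as near.

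**Figure D2:**
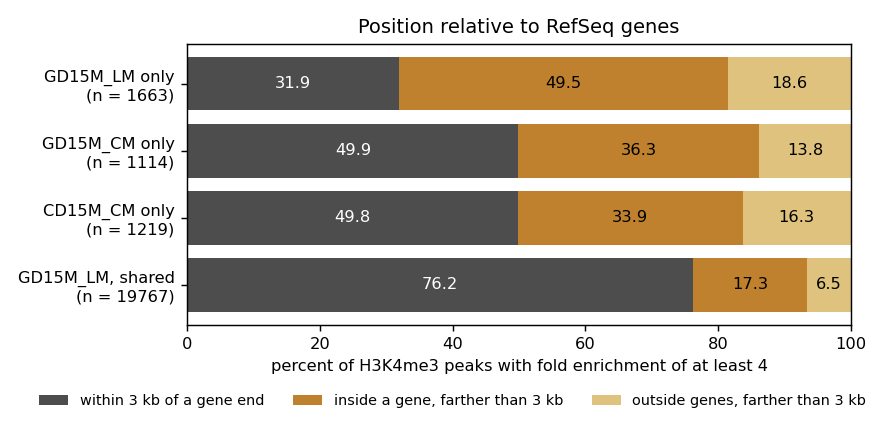
Percent of H3K4me3 peaks at a fold enrichment of at least 4 (horizontal) that lay within 3 kb of a RefSeq gene end, inside a gene farther than 3 kb from its ends, or outside genes, for the regions of each list only and for the shared GD15M_LM peaks, with the number of peaks beside each bar. The regions of GD15M_LM only had 31.9% near a gene end, below the 49.9% and 49.8% of the CM regions and the 76.2% of shared peaks.

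The regions fell into those at the flank of other H3K4me3 peaks and those standing apart. Within 1 kb of another LM peak lay 648 regions (39.0%), and the median distance of these to a CM peak was 587 bp, whereas the 1015 regions that stood apart had a median of 11475 bp. A flanking place was not particular to the regions: 42.0% of shared peaks lay within 1 kb of another LM peak. Between 4 and 5 it was 41.2% of regions and 62.0% of shared peaks. Of regions of GD15M_CM only and CD15M_CM only, 57.4% and 51.9% lay that near to another peak of their own list. Over all regions the nearest CM H3K4me3 peak was a median of 2752 bp away, within 1 kb for 572 regions (34.4%) and farther than 10 kb for 578 (34.8%). Regions of GD15M_CM only and of CD15M_CM only were closer to peaks of the other lists, at medians of 874 and 1061 bp, with 12.5% of the GD15M_CM regions beyond 10 kb. For them the other lists include one of the same layer. H3K27ac and gene position differed between the 2 kinds: of the flanking regions, 46.8% (42.9 to 50.6) lay near a gene end and 38.3% (34.6 to 42.1) held LM H3K27ac, and of those apart, 22.4% (19.9 to 25.03) and 64.9% (61.9 to 67.8).

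The 15 regions of highest fold enrichment stood mostly far from CM peaks, 12 of them by more than 10 kb. The highest lay near the upper end of MGAM2, a gene of the maltase-glucoamylase family, at 7861660 to 7863390 on chromosome 18 of Sscrofa11.1, with a fold enrichment of 15.8 and a width of 1731 bp. The nearest H3K4me3 peak of CD15M_CM was 10006 bp away and that of GD15M_CM 302258 bp away. Its H3K27ac fold enrichment was 4.14 in GD15M_LM and 2.84 in CD15M_CM, and GD15M_CM had no peak there. The second region was 2013 bp wide and came within 35 bp of an end of C4H8orf46 on chromosome 4, with a fold enrichment of 12.01 and H3K27ac of 6.26 in GD15M_LM, 3.51 in CD15M_CM and no peak in GD15M_CM. Next came a region in CSRNP3, a nuclear protein gene, at 11.8 with no H3K27ac in any list. A region at 11.0 was 246 bp wide and lay 62898 bp from the lncRNA LOC110256982, with no H3K27ac in any list.

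Among the next regions, the one in ADGRV1, an adhesion G protein-coupled receptor gene, had a fold enrichment of 9.86 and the highest LM H3K27ac of the 15, 10.1, at percentile 99.5 of its list. In GD15M_CM and CD15M_CM the same place held H3K27ac of 2.70 and 4.42, at percentiles 14.9 and 77.1. The region in STAMBP, a deubiquitinase gene, had 10.1 with H3K27ac percentiles of 94.4, 91.2 and 73.6, so it carried like acetylation in both pregnant layers. The region 57246 bp from GNPDA2, a glucosamine-6-phosphate deaminase gene, also had 10.1, and its H3K27ac percentile was 88.0 in GD15M_LM and 15.6 in CD15M_CM, with no peak in GD15M_CM. The region in DISP1, which releases Hedgehog ligands from cells, went the other way: it had H3K27ac at percentiles 87.6 and 93.7 in the CM lists and none in GD15M_LM. A region in COBL, an actin nucleator gene, had 9.19 with percentiles of 83.0, 77.3 and 42.9. The regions at the end of the lncRNA LOC106507269 (9.86), near LOC110261121 (9.78), near LYPD6 (9.68), near SDK1 (9.32) and in FHL1 (9.12) held no H3K27ac in any list. In all, 7 of the 15 held LM H3K27ac, each with its highest percentile in GD15M_LM, 7 held none in any list and 1 held only CM H3K27ac.

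**Figure D3:**
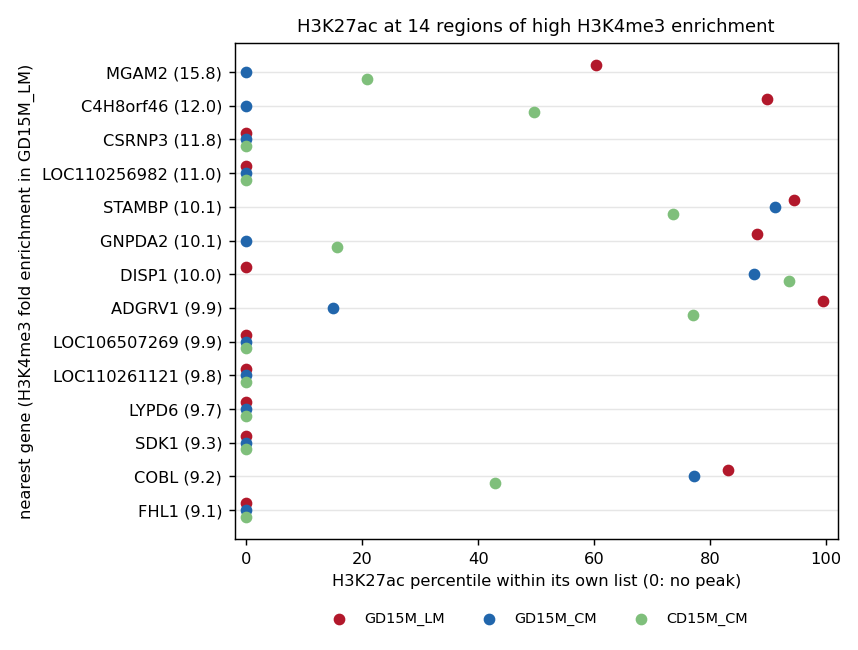
H3K27ac percentile within its own list (horizontal, 0 for no peak) at 14 of the 15 regions of highest H3K4me3 fold enrichment, named by their nearest gene with the fold enrichment in brackets, one point for each of GD15M_LM (red), GD15M_CM (blue) and CD15M_CM (green). ADGRV1 has the widest gap between the pregnant layers among regions with a peak in both, 99.5 against 14.9, while 7 regions have all points at 0.

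The widest regions included broad marks inside smooth muscle and signalling genes. The widest, 3059 bp, lay in EYA4, a transcriptional coactivator and phosphatase gene, on chromosome 1, 385425 bp from the nearest CM peak, with a fold enrichment of 8.48 and no H3K27ac. P2RX1, which encodes an ATP-gated cation channel of smooth muscle and platelets, held 2 of the 10 widest, of 2902 bp over its upper end and 1829 bp inside, with fold enrichments of 8.86 and 6.23. H3K27ac at the wider one stood at percentile 85.1 in GD15M_LM, 38.8 in GD15M_CM and 51.8 in CD15M_CM, and at the other at 59.1, 14.9 and 59.4. No H3K4me3 peak of GD15M_CM lay within 3 kb of P2RX1, and CD15M_CM had only 1 of 261 bp at its lower end. A region of 2819 bp lay in NCS1, a neuronal calcium sensor gene, with 6.90 and H3K27ac percentiles of 41.9, 35.7 and 87.6, and one of 1934 bp near COX6C, a subunit of cytochrome c oxidase, had 5.96 with 59.5, 86.2 and 83.2. LM H3K27ac was thus not the highest of the 3 at either. A region of 1800 bp beside SORBS2, an adaptor of the actin cytoskeleton, had 4.35 with H3K27ac percentiles of 96.1, 32.0 and 88.6, and SORBS2 had no CM H3K4me3 peak at either end. The rest of the 10 widest lay at C4H8orf46, near LOC110261121 and in PPARGC1B and MYLK.

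Some genes collected several regions. Of genes with regions inside them or within 3 kb, 41 had 3 or more and 14 had 4 or more. MEIS1, a homeobox transcription factor gene, had the most with 7, of fold enrichments from 4.13 to 6.07 and widths from 209 to 1025 bp. It held 12 LM H3K4me3 peaks covering 27010 bp, against 3 peaks of 18804 bp in GD15M_CM and 3 of 20209 bp in CD15M_CM. A shared LM peak of 16337 bp and fold enrichment 41.0 covered its upper end, where the CM lists had peaks at up to 19.7 and 20.1, and 5 of the 7 regions lined the gene body beside it. Only 2 of the 7 held LM H3K27ac. MEIS2, its paralog, had 4 regions with fold enrichments from 4.37 to 7.70 among 8 LM peaks, against 2 and 3 in GD15M_CM and CD15M_CM. The strongest of them had H3K27ac at percentile 92.8 in GD15M_LM and 60.1 in CD15M_CM, and none of the 4 had any in GD15M_CM.

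FHL1, on chromosome X, which encodes a LIM domain protein of muscle, had 6 regions between 5.93 and 21.9 kb from its lower end, with fold enrichments of 5.80, 6.61, 6.47, 9.12, 4.20 and 5.33 in that order. LM H3K4me3 covered 28771 bp of the gene in 15 peaks, against 9877 bp in 8 peaks of GD15M_CM and 16379 bp in 9 of CD15M_CM. Its 6 regions held H3K27ac in 4 cases in GD15M_LM, in 3 in CD15M_CM and in none in GD15M_CM. MYLK, which encodes the kinase that phosphorylates the myosin light chain and so starts smooth muscle contraction, also had 6, with fold enrichments from 4.12 to 6.34. H3K27ac was found at 5 of them in GD15M_LM, 4 in GD15M_CM and 5 in CD15M_CM, so most of the MYLK regions were acetylated in all 3 types. Total LM cover of MYLK was 35971 bp, against 15243 and 22530 bp in GD15M_CM and CD15M_CM.

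**Figure D4:**
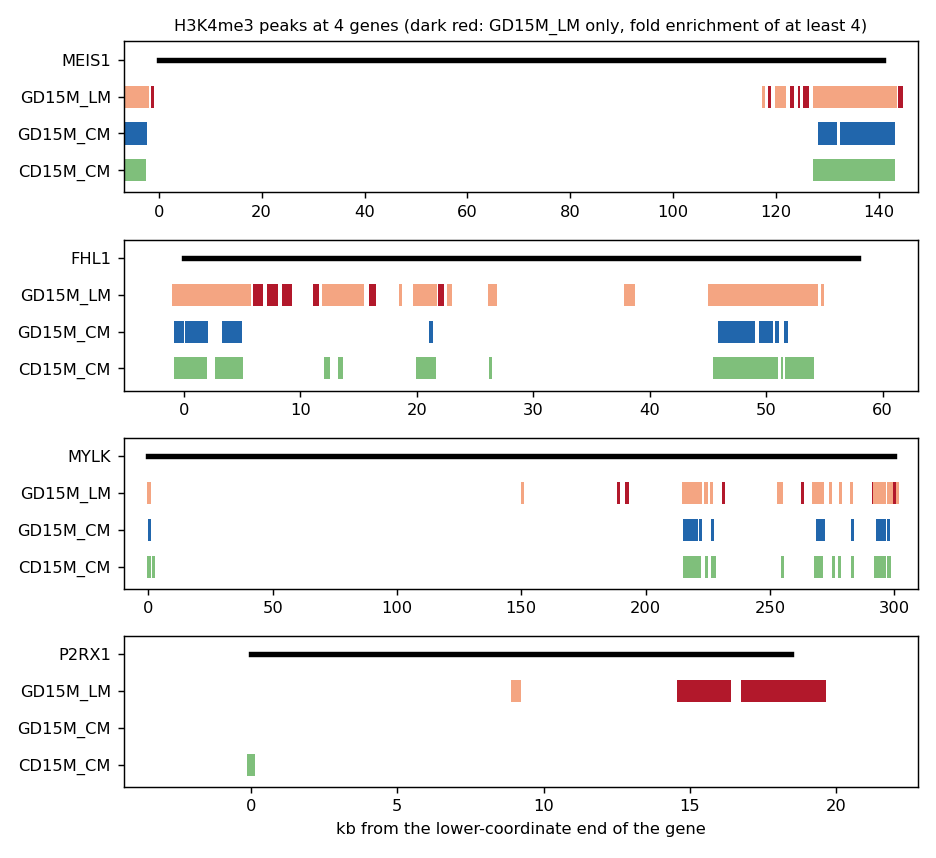
H3K4me3 peaks of the 3 lists along MEIS1, FHL1, MYLK and P2RX1 (horizontal, kb from the lower-coordinate end of each gene, drawn as a black line), with regions of GD15M_LM only in dark red, other GD15M_LM peaks in light red, GD15M_CM in blue and CD15M_CM in green; very narrow peaks are widened to be visible. The regions sit beside broad shared peaks at MEIS1 and FHL1, whereas at P2RX1 the 2 regions lie 14459 and 16645 bp from the nearest CM peak.

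In all, 11 genes had 4 regions, and the 7 of these with the highest fold enrichment are given here, MEIS2 among them. TNS1, which links actin to integrins, had regions that all held H3K27ac in the 3 lists, with the region of highest H3K27ac at percentiles 98.2, 77.5 and 86.3. PPARGC1B, a coactivator of mitochondrial genes, had 4 acetylated in GD15M_LM and CD15M_CM and 3 in GD15M_CM, among them the 1979 bp region with percentiles of 85.6, 69.2 and 95.9. TBC1D1, a Rab GTPase-activating protein gene, had 3, 2 and 4 of 4 acetylated in GD15M_LM, GD15M_CM and CD15M_CM, and PDE7B, a cAMP phosphodiesterase gene, 2, 1 and 3 of 4. FRMD4B, a scaffold protein gene, had none of its 4 acetylated in any list. LOC106508546 was no richer in LM peaks than in CM peaks, with 15 in GD15M_LM, 17 in GD15M_CM and 15 in CD15M_CM. The other 4 genes with 4 regions were RNF216, with 4, 3 and 4 acetylated in GD15M_LM, GD15M_CM and CD15M_CM, RALGPS2, with 2, 0 and 2, ADAMTS9, with 3, 2 and 3, and MICAL3, with 3 in each list.

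H3K27ac was measured with a different antibody than the one that chose the regions, but from the same gilts and over IgG of the same types. It was found in GD15M_LM at 907 regions (54.5%, interval 52.1 to 56.9), against 81.1% of all LM peaks at the threshold, in GD15M_CM at 681 (41.0%, 38.6 to 43.3) and in CD15M_CM at 918 (55.2%, 52.8 to 57.6). Many regions without a CM H3K4me3 peak thus held CM H3K27ac, though fewer than the 84.5% and 86.5% of shared peaks that held it in GD15M_CM and CD15M_CM. All 3 lists had H3K27ac at 579 regions (34.8%), and none had it at 606 (36.4%). H3K27ac was found in GD15M_LM alone at 73 regions (4.39%, 3.51 to 5.48), against 1.34% of all LM peaks at the threshold and 2.55% (2.05 to 3.16) of shared peaks between 4 and 5. In GD15M_LM and CD15M_CM but not GD15M_CM it was found at 226 (13.6%, 12.03 to 15.3), and in both pregnant layers but not CD15M_CM at 29 (1.74%). The share in GD15M_LM alone rested on the limit: it was 8.78% with equal numbers of peaks in the lists, beside 5.45% for those shared peaks, 13.8% among H3K27ac peaks of at least 4, 6.61% where the centre base of the region counted, and 2.42% among regions with a −log10 p of at least 10. GD15M_CM, the list in which fewest regions were acetylated, had more H3K27ac peaks on these chromosomes than GD15M_LM, 78855 against 56172, and CD15M_CM had 80992. With each list cut to its 56172 strongest peaks, the shares were 54.5%, 35.0% and 46.9%, so GD15M_LM and CD15M_CM changed places and GD15M_CM was still lowest.

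At like strength, GD15M_CM H3K27ac was found less often at the regions than at shared peaks. The regions were chosen for lacking a CM H3K4me3 peak, so this is not independent of the choice. The intervals cover counting error over regions alone and are no test between types. Between 4 and 5, LM H3K27ac was found at 50.9% (48.1 to 53.7) of regions and 45.3% (43.6 to 47.1) of shared peaks, and GD15M_CM H3K27ac at 39.2% (36.5 to 42.0) and 53.9% (52.1 to 55.6). CD15M_CM H3K27ac was closer, at 51.8% (49.0 to 54.6) of regions and 54.8% (53.1 to 56.6) of shared peaks. Between 5 and 8 the LM shares were 65.3% (60.7 to 69.7) and 66.3% (64.7 to 67.9), with overlapping intervals, and the GD15M_CM shares 46.6% (41.8 to 51.3) and 70.0% (68.5 to 71.6). The CD15M_CM shares there were 65.3% (60.7 to 69.7) and 74.3% (72.8 to 75.7). With equal numbers of H3K27ac peaks in the lists, the GD15M_CM shares were 34.0% of regions and 44.6% of shared peaks between 4 and 5, and 38.2% and 61.4% between 5 and 8. The CD15M_CM shares were then 44.1% and 43.9% between 4 and 5, and 55.3% and 65.1% between 5 and 8. The order of the lists at shared peaks depended on these numbers: between 5 and 8 it became GD15M_LM (66.3%), CD15M_CM (65.1%) and GD15M_CM (61.4%), the order that the regions then had at 65.3%, 55.3% and 38.2%. In the 579 regions with H3K27ac in all 3 lists, the median percentile was 80.5 in GD15M_LM, 64.9 in GD15M_CM and 75.02 in CD15M_CM. Shared peaks between 4 and 5 with H3K27ac in all lists had medians of 61.3, 66.1 and 72.8. GD15M_LM held the highest H3K27ac percentile of the 3 at 501 regions (30.1%, 27.97 to 32.4), against 25.8% of all LM peaks at the threshold and 14.3% (13.1 to 15.6) of shared peaks between 4 and 5. CD15M_CM did so at 383 and GD15M_CM at 173. The same rule applied to the CM lists gave regions with little LM H3K27ac: of GD15M_CM regions 38.3% (35.5 to 41.2) held H3K27ac of their own type and 8.62% held that of GD15M_LM, and of CD15M_CM regions 41.2% and 16.9% did. Those regions were in turn chosen for lacking an LM H3K4me3 peak, and also one of the other CM list.

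**Figure D5:**
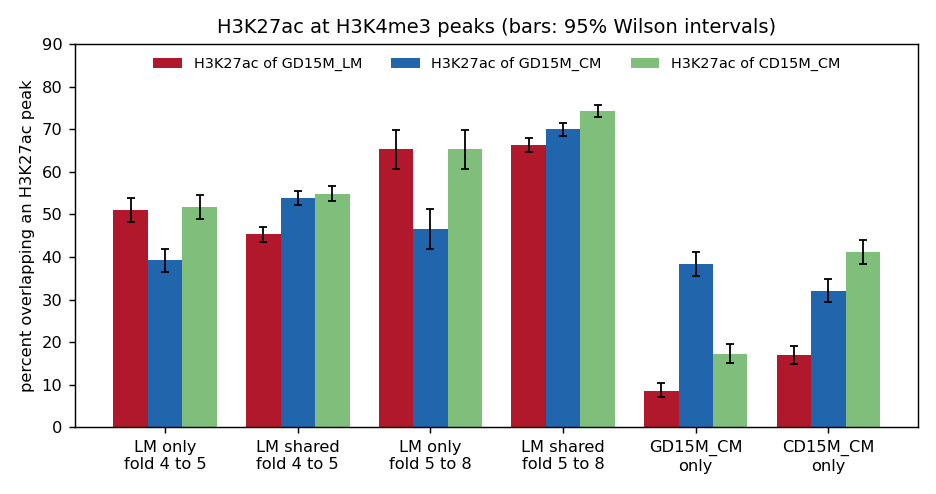
Percent of H3K4me3 peaks (vertical) that overlapped an H3K27ac peak of GD15M_LM (red), GD15M_CM (blue) or CD15M_CM (green), for regions of GD15M_LM only and shared GD15M_LM peaks within the same range of fold enrichment and for regions of each CM list only, with 95% Wilson intervals. GD15M_CM gives the shortest bar at both sets of GD15M_LM regions, 39.2% and 46.6%, and not at the shared peaks beside them, where with equal numbers of H3K27ac peaks it is the lowest between 5 and 8.

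H3K27ac was found least often near gene ends. LM H3K27ac lay at 33.2% (29.3 to 37.3) of the 530 regions within 3 kb of a gene end, at 61.8% (58.4 to 65.0) of the 824 inside genes and at 71.8% (66.6 to 76.6) of the 309 outside genes. The GD15M_CM shares were 25.3%, 49.3% and 45.6%, and the CD15M_CM shares 34.3%, 62.9% and 70.6%. Regions outside genes thus had the highest share of LM and CD15M_CM acetylation, and no H3K27ac in any list was most common near gene ends, at 57.5% (53.3 to 61.7).

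Of the 73 regions with H3K27ac in GD15M_LM alone, the 10 of highest H3K4me3 fold enrichment ran from 5.32 to 7.42 and their H3K27ac fold enrichment from 2.41 to 4.44, at percentiles from 2.47 to 67.3 of the LM list. The highest lay 4106 bp from LOC100521510 on chromosome 10, with H3K4me3 of 7.42 and H3K27ac of 4.06. The region inside TRPC6, a cation channel gene of the receptor-activated calcium entry path of smooth muscle, and near the lncRNA LOC110255424, had 5.56 and 4.44 and lay 162 bp from the nearest CM H3K4me3 peak. A region in TCF7L2, the transcription factor gene at the end of the WNT pathway, had 5.32 and 3.71. The one near IFN-DELTA-4, a type I interferon family gene of the pig, had 6.27 and 4.40, at 143 bp from the gene. Others lay near CDCA7 (5.95 and 2.41), UBE4B (5.80 and 3.63), LOC110256647 (5.57 and 4.36), RCHY1 (5.37 and 4.27) and LOC102164652 (5.32 and 4.01).

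Within 3 kb of a gene end, the regions touched 638 genes, 2.27% of the 28073 placed RefSeq genes and 4.03% of the 15850 with an LM H3K4me3 peak at the threshold there. Of these, 519 were protein-coding, 103 were lncRNA genes and 16 of other kinds, and 123 regions lay near ends of more than 1 gene. Most of the genes were marked in circular muscle as well: 529 had a CM H3K4me3 peak within 3 kb of an end, and 109 had none, of which 64 were protein-coding and 40 lncRNA genes. These 109 became 41 at a fold enrichment of at least 5, 22 among regions of at least 4 that also had a −log10 p of at least 10, and 221 at a fold enrichment of at least 3. A CM peak could still lie close to such a region, and 105 genes were left without regions that had one within 1 kb. The regions at those 109 genes numbered 103, of which 48 held H3K27ac in GD15M_LM, 35 in GD15M_CM and 48 in CD15M_CM, and 52 held none.

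Of the smooth muscle markers, 4 of 14 genes had a region near an end, ACTA2, ACTG2, MYLK and SYNPO2, all of which also had H3K4me3 of both CM lists at an end. The regions at SYNPO2, ACTG2 and MYLK lay close to CM peaks, at 399, 861 and 1003 bp from the nearest. ACTA2, smooth muscle alpha actin, had 3, of fold enrichments 4.77, 5.06 and 5.74 over and just below its lower end, 6463 to 11467 bp from the nearest peaks of the CM lists. The strongest of these held no H3K27ac in any list. The highest H3K4me3 at an ACTA2 end was 23.8 in GD15M_LM, 17.8 in GD15M_CM and 21.3 in CD15M_CM, at percentiles 87.2, 85.1 and 85.0. At MYLK the end region had 6.34, and the highest peak at an end had 15.6, 6.62 and 8.55 in the 3 lists. The region near SYNPO2, an actin-binding protein gene, had 4.17, and the gene's highest H3K4me3 at an end stood at percentiles 97.5, 74.3 and 91.5. The region near ACTG2, enteric gamma actin, had 4.29 with 75.3, 72.6 and 78.6. PPP1R3C, a glycogen-targeting subunit of protein phosphatase, was the other gene with 3 regions within 3 kb of its ends, with fold enrichments of 7.43, 5.53 and 4.99. MYH11, smooth muscle myosin heavy chain, had no region near an end but 3 inside, of 7.58, 4.55 and 4.70. All 3 held H3K27ac in both GD15M_LM and CD15M_CM, and 1 held it in GD15M_CM. The 7.58 region lay 52 bp from a CD15M_CM H3K4me3 peak. The gene had 18 LM H3K4me3 peaks against 4 and 7 in GD15M_CM and CD15M_CM, of which 5, 3 and 3 reached a fold enrichment of 4.

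Few channel and cholinergic receptor genes had a region near an end, but so did few of all placed genes, at 2.27%. Counts for these lists were not tested against that share. Of 21 cholinergic receptor genes and of 91 potassium channel genes, 0 had one, and of 10 placed contraction genes named by the study 0 did. That count covers only peaks without CM overlap. All 10 contraction genes had LM H3K4me3 within 3 kb of an end, as 9 and 10 did in GD15M_CM and CD15M_CM. Their H3K4me3 percentile was highest in GD15M_LM for 7 of the 10, against 4816 of the 28073 placed genes. Of all placed genes, 16417 had LM H3K4me3 there. The paper lists ADRA2A, CAMKK1, CAMKK2 and MYL9 among genes with more H3K4me3 in LM. It named them from the same libraries, so the count of 7 of 10 is not independent of how the genes were chosen. CACNA1E, which encodes an R-type calcium channel pore, was the 1 of 24 voltage-gated calcium channel genes with a region, which covered its lower end with 6.72 and was the sole H3K4me3 peak at an end in any of the lists, 174835 bp from the nearest CM peak. H3K27ac there was at percentile 42.4 in GD15M_LM and 55.3 in CD15M_CM, with no peak in GD15M_CM. Of 17 steroid, oxytocin and prostaglandin genes, 2 had a region: PGR, the progesterone receptor, at 4.43 without H3K27ac, and PTGIR, the prostacyclin receptor, at 4.09 with H3K27ac percentiles of 88.6, 14.7 and 38.0.

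Over all placed genes, 2.27% had a region near an end. The share was 8.33% for HOX genes and 9.09% for WNT genes. It was near that of all genes for FOX and related factors, at 2.08%, and for matrix genes, at 2.41%. These shares rest on few genes, and differences between the lists were not tested. Of 36 HOX genes, which set position along the body and the reproductive tract, 3 had a region: HOXA13 at 4.61, and HOXD8 and HOXD9, which shared a region of 201 bp at 4.44, all without H3K27ac. Of 96 factors of the FOX, SOX, TBX, PAX, LHX and sine oculis homeobox families, 2 did. FOXD3, a neural crest factor, had one at 4.32 with no CM H3K4me3 at an end and no H3K27ac, and FOXK1 had one at 4.72 beside strong shared peaks. Of 44 WNT ligands, receptors and antagonists, 4 did, with fold enrichments of 5.49 at FZD7, 4.39 at FZD4, 4.35 at RSPO1 and 4.14 at SFRP2. SFRP2, a secreted WNT antagonist, had its highest H3K4me3 at an end at 28.2 in GD15M_LM, 4.22 in GD15M_CM and 16.98 in CD15M_CM, the widest range among these 4. Of 83 collagen, laminin and integrin genes, 2 did: COL12A1, at 5.19 with H3K27ac percentiles of 92.8, 84.7 and 41.4, and COL11A1, at 4.72 with the region as its highest LM peak, no GD15M_CM peak and 3.53 in CD15M_CM.

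Of the markers of other cell types, 1 gene had a region near an end. Of the 8 mesothelium, 11 uterine epithelium, 10 endothelium, 8 T cell, 10 nerve and glia and 10 interstitial and fibroblast markers, 0 had one. Of 9 macrophage and B cell markers, AIF1, a macrophage calcium-binding protein, had one at 4.04 without H3K27ac, beside LM, GD15M_CM and CD15M_CM peaks of 6.47, 7.18 and 5.88 at its ends. Of 11 interferon gamma response genes named by the study, B2M, the light chain of MHC class I, had one at 4.04, at the second of its loci in the gene table. A GD15M_CM H3K4me3 peak lay 416 bp from it. That peak lay beyond 3 kb from the ends of the locus, which therefore counts among the 109 genes without a CM peak there. Poorly mapped reads were removed by the authors, and how well reads could be placed at this locus was not tested. Beside the 2.27% of all placed genes, the share of a list with a region was 28.6% for the smooth muscle markers, 11.8% for the steroid and prostaglandin genes, 11.11% for the macrophage and B cell markers, 9.09% for the WNT genes and for the interferon gamma genes, 8.33% for the HOX genes, 4.17% for the calcium channels, 2.41% for the matrix genes and 2.08% for the FOX and related factors. Among genes with an LM H3K4me3 peak at the threshold near an end, as 13 of the 14 smooth muscle markers had, the share was 4.03%.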

How the data were processed

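Per the labels and the study's methods, the authors mapped CUT&Tag reads to Sscrofa11.1 with BWA 0.7.17, removed duplicates and poorly mapped reads with SAMtools 1.9 and Picard 2.8.3, pooled the 2 gilts of each type and called peaks with MACS2 2.2.6. The deposited fold enrichment is a ratio of mark over IgG. The deposited −log10 p-value was used only as an alternative limit, and the −log10 q-value was not used. Peak length was taken as deposited. Read depth is not given in the peak files, so the precision of a single fold enrichment is unknown.

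Overlap needed 1 bp. Distances ran to the ends of RefSeq genes (Sscrofa11.1 coordinates) without strand, within 3 kb for "near". A symbol at several loci stood for the locus with a region. Overlap, distance and gene assignment were tested on simulated data, 1200 cases each, with 0 differing. Python 3.11.15, pandas 2.3.3, NumPy 2.4.6 and SciPy 1.17.1 were used.

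The regions and gene lists were chosen with earlier results of these data known. Named genes are those near the 15 regions of highest fold enrichment and the 10 widest, the 10 genes with most regions (ties by highest fold enrichment), the 10 strongest regions with H3K27ac of GD15M_LM alone, listed genes with a region near an end, and regions at the threshold; PPP1R3C, MYH11 and genes named for their position around a region were chosen after their values were seen. The planned search of promoter sequences was not done, as sequence was not used here. Some named items are not reported here.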

Additional observations from a re-analysis of the deposited data

How the results depend on the processing

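Which regions were counted, and their shares, depended on the limits; of the 65 values recomputed, 47 moved by more than their interval or by more than 1.5 times for counts, and 18 did not. The shares are given in the order near a gene end, inside a gene, with LM H3K27ac, with H3K27ac in GD15M_LM alone and within 1 kb of another LM peak, for those that moved. At a fold enrichment of at least 5, 444 regions were left, with 28.2% near a gene end, 64.4% with LM H3K27ac, 32.9% within 1 kb of another LM peak, a median width of 558 bp and 41 genes marked in LM alone. At least 3 gave 4292 regions, 36.8%, 52.0%, 41.8%, 331 bp and 221 genes. A −log10 p of at least 10 as well left 248 regions, with 25.4% near a gene end, 53.6% inside genes, 73.4% with LM H3K27ac, 2.42% with it in LM alone, 28.2% within 1 kb, 705 bp and 22 genes. With no CM peak within 1 kb, 1091 regions gave 20.9% near a gene end, 54.3% inside genes, 66.8% with LM H3K27ac, 15.4% within 1 kb and 402 bp. With LM peaks less than 1 kb apart joined, 1095 regions gave 22.6%, 53.0%, 66.1%, 0% by construction and 409 bp. Calling a peak shared only when 50% of it was covered gave 36.7% near a gene end, 46.4% inside genes, 43.1% within 1 kb and 465 bp. With protein-coding genes only, 26.999% lay near a gene end and 64 genes were marked in LM alone, and with a window of 1 kb, 11.8% lay near a gene end and 64.2% inside genes. H3K27ac peaks of at least 4 gave 39.99% with LM H3K27ac and 13.8% with it in LM alone. Requiring 50% of the region to be covered gave 50.8% and 6.43%, equal numbers of H3K27ac peaks gave 8.78% in LM alone, and the centre base, an alternative added after seeing the data, gave 51.2% and 6.61%. The order of the lists turned with equal numbers of H3K27ac peaks: at the regions GD15M_LM stood at 54.5% against 46.9% in CD15M_CM, in place of 54.5% against 55.2%, and at shared peaks against GD15M_CM at 45.3% against 44.6% between 4 and 5, in place of 53.9%, and at 66.3% against 61.4% between 5 and 8, in place of 70.0%. The centre base also put GD15M_LM above CD15M_CM at the regions, 51.2% against 48.5%. The causes were not tested beyond what each limit removes. No paired analysis was possible because the lists were called on pooled gilts, and leaving out a gilt could not be done for the same reason. Peak strength limits all of this, since most regions lie just above the threshold.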

Other observations

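Some of the 64 protein-coding genes with a region near an end and no CM H3K4me3 peak at either end belong to immune cells. These were chosen after their values were seen, from no fixed list, and no test bears on them. CX3CR1, the fractalkine receptor of monocytes and macrophages, had a region over its upper end at a fold enrichment of 5.54, and VSIG4, a complement receptor of tissue macrophages, had one of 1200 bp at 5.56. C3AR1, the receptor of complement fragment C3a, had one at 4.99, and GPR183, an oxysterol receptor that guides lymphocytes, one at 4.65. A CM H3K4me3 peak lay 661 bp from the GPR183 region, beyond 3 kb from the ends of that gene. CD22, a B cell co-receptor, had 6.20, TLR10 4.85 and KLRK1, a receptor of natural killer and T cells, 4.44. None of the 7 regions held H3K27ac in any list. Whether these cells differed in number between the layers was not tested, and no macrophage or B cell marker of the fixed list other than AIF1 had a region.

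Some genes used in neurons and in the embryo were among the same 64. They too were chosen after their values were seen, from no fixed list, and 0 of the 10 nerve and glia markers of the fixed list had a region. EN1, a homeobox factor, had a region at 5.44, GABRB1, a GABA receptor subunit, at 5.33, SCN3A, a sodium channel, at 4.99, SLITRK3, a synaptic adhesion protein, at 4.17 and LRRC7, a postsynaptic protein, at 4.28, and none of these held H3K27ac in any list. Others held it in GD15M_LM and CD15M_CM, with LM H3K27ac fold enrichments of 3.59 at CACNA1E, 3.63 at NPFFR2, a neuropeptide receptor, and 2.87 at NPTX1, a secreted synaptic protein. Muscle genes were there as well, with CAPN3, a muscle protease, at 5.79 and FHL2, a LIM domain protein related to FHL1, at 4.17, both without H3K27ac. In contrast, the region at the lncRNA LOC110256112, inside MYOCD, the coactivator that drives smooth muscle genes, had 6.22 with H3K27ac percentiles of 78.3, 19.5 and 82.7 in GD15M_LM, GD15M_CM and CD15M_CM, 42908 bp from the nearest CM H3K4me3 peak.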
